A study of Mus musculus with 12 samples.

Results

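The genes described here are 9 secreted or membrane-bound proteins of matrix breakdown: the aggrecanase-type proteases Adamts4, Adamts5 and Adamts9, the matrix metalloproteases Mmp2, Mmp14 and Mmp19, and the tissue inhibitors of metalloproteases Timp1, Timp2 and Timp3. They were chosen by name, and all 9 were among the 18193 genes that had a probe set annotated to a single gene on the Affymetrix array. Matrix metalloproteases and ADAMTS proteases are zinc-dependent enzymes made as inactive precursors, which cut collagens, basement membrane proteins and proteoglycans such as versican. TIMPs bind the active site of these enzymes and block them. In the ovary, the surge of luteinizing hormone is followed by remodelling of the follicle wall and of the hyaluronan-rich matrix around the oocyte, and proteases and inhibitors of these families take part in both.

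The arrays measured RNA of granulosa cells, the hormone-responsive somatic cells that line the follicle, cut by laser microdissection from antral, preovulatory follicles of 3-week-old mice. There were 4 groups of 3 biological replicates. The bERKO hCG group held cells of mice lacking estrogen receptor beta, the estrogen receptor encoded by Esr2, that were given PMSG (a gonadotropin that acts on the follicle as FSH does) for 48 h and then hCG (which acts on the LH receptor) for 4 h. The WT hCG group held cells of wild-type mice treated in the same way, and the bERKO PMSG and WT PMSG groups held cells collected 48 h after PMSG alone. All 4 groups had therefore received PMSG, and the design asks how hCG changes preovulatory granulosa cells and how the loss of the receptor alters that change. The strain, the design of the Esr2 allele and the number of animals behind each array are not given in the sources used here.

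Each array was made from 25 ng of amplified RNA, and values below are log2(intensity + 16) after quantile normalization, so that 4.00 is the floor and a fold change of a dim gene is understated. Median deposited intensities were 49.1 to 112.8. The ratio of the 3' to the 5' control probe sets of Gapdh, a measure of how much of the transcript was copied, was 32.2 on WT hCG replicate 1 and 23.7 on bERKO PMSG replicate 3, against 4.72 to 11.2 on the other arrays, and results that rest on these 2 arrays are also given without them. WT hCG replicate 1 also showed little of the rise in hCG-induced genes that its label implies: Pgr was at 5.21, against 13.10 and 13.38 on the other two WT hCG arrays and 6.45 to 6.67 in WT PMSG cells. Tnfaip6 was at 6.13 on it, against 12.16 and 13.71, and Has2 at 6.19, against 9.05 and 8.71. The array was kept under its label, and every WT response below that includes it averages this array with 2 on which these genes were high. Esr2 itself read 8.13 to 8.53 in bERKO hCG cells and 8.68 to 9.52 in WT hCG cells, and 8.13 to 8.64 in bERKO PMSG cells against 9.01 to 10.33 in WT PMSG cells, a difference of -1.24 after PMSG that did not pass (limma, adjusted p = 0.307). Where its probe set lies relative to the deleted part of the gene is not known here, so these levels do not check the genotype. Granulosa markers averaged 11.36 to 12.74 on every array, and markers of other cell types, given beside the results, were above the floor as well. In such samples fewer cells of a type and less RNA per cell cannot be told apart.

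Promoter sequence is shown for the members that changed after hCG and have an entry in RefSeq's promoter table (GRCm38.p6): Timp1 at chrX:20869916-20870215 on the plus strand, Timp3 at chr10:86300162-86300461 on the plus strand and Adamts9 at chr6:92943485-92943784 on the minus strand. Each runs 5' to 3' from 250 bases before the transcription start of that entry to 50 bases after it. The Adamts9 start lies inside the annotated gene, which extends to chr6:92944450, so this window is not at the gene's outer 5' end. Capitals mark the matches to the motifs described next.
Timp1: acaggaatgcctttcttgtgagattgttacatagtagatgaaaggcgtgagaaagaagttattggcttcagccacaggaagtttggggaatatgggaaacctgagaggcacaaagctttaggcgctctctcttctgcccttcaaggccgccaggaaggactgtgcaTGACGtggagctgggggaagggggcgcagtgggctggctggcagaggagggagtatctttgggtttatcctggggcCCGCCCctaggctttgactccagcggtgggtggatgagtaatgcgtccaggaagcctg
Timp3: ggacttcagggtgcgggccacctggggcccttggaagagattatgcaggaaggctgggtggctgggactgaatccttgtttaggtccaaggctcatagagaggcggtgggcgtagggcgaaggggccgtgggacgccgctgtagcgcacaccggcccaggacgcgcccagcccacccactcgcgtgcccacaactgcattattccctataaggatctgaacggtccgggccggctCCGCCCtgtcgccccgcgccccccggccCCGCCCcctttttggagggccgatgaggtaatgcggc
Adamts9: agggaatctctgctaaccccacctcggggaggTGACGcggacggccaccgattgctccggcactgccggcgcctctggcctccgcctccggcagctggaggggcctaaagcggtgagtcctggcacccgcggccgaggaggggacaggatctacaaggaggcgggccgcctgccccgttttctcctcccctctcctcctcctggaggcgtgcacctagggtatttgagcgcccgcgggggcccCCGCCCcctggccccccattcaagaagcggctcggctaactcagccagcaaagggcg

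Both strands were searched for 5 motifs: TGANTCA, bound by AP-1 (Fos and Jun proteins), TGACG, the cAMP response half-site bound by CREB, TGTGGT, bound by RUNX factors, GGGCGG, the SP1 box, and AAGGTCA, bound by NR5A factors. The window of Timp1 held a TGACG 84 bases before the start and an SP1 box 8 bases before it. That of Adamts9 had the same arrangement at greater spacing, with a TGACG 218 bases before the start and an SP1 box 7 bases before it. Timp3 had SP1 boxes 15 bases before and 13 bases after the start and no TGACG. Among all 32851 promoters of that table, 20.8% held a TGACG and 35.7% an SP1 box, so both are common. No exact match to the AP-1 motif, found in 7.81% of promoters, or to the NR5A motif, found in 4.72%, lay in the windows of the 5 members with an entry. Only exact matches were counted. Sequences 1 base away from the AP-1 motif, such as TGAGTAA in the Timp1 window and TGAGTCC in that of Adamts9, were therefore not marked. Of the members with an entry that were not called, Mmp14 had 2 SP1 boxes and a RUNX motif, which 16.8% of promoters hold, and Timp2 had 1 SP1 box. No 2 matches overlapped. Adamts4, Adamts5, Mmp2 and Mmp19 are named without sequence.

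In bERKO granulosa cells, 4 h of hCG was accompanied by higher Adamts4, Timp1, Adamts9 and Timp3 and by lower Adamts5, while Mmp2, Mmp14, Mmp19 and Timp2 did not pass the test. In wild-type cells the same treatment gave a called change in Adamts9 alone over all 12 arrays, and in Timp1 as well when both arrays with a high Gapdh ratio were left out. A gene was called when its adjusted p over all 18193 genes was under 0.05 in a limma fit over the 12 arrays. The 5 of 9 members called in bERKO cells, 4 higher and 1 lower, compare with 18.9% of all genes called in that comparison, 7.05% higher and 11.9% lower. The single member called in WT cells, a higher one, compares with 2.08% of all genes (0.731% higher, 1.35% lower). In 5 of 9 members the hCG and PMSG arrays of bERKO cells did not overlap, against 36.2% of all genes, and in 1 of 9 those of WT cells did not, against 24% of all genes. The median response of the 9 was 1.48 in bERKO cells, beside -0.19 for all genes, and -0.13 in WT cells, beside -0.08.

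**Figure D1:**
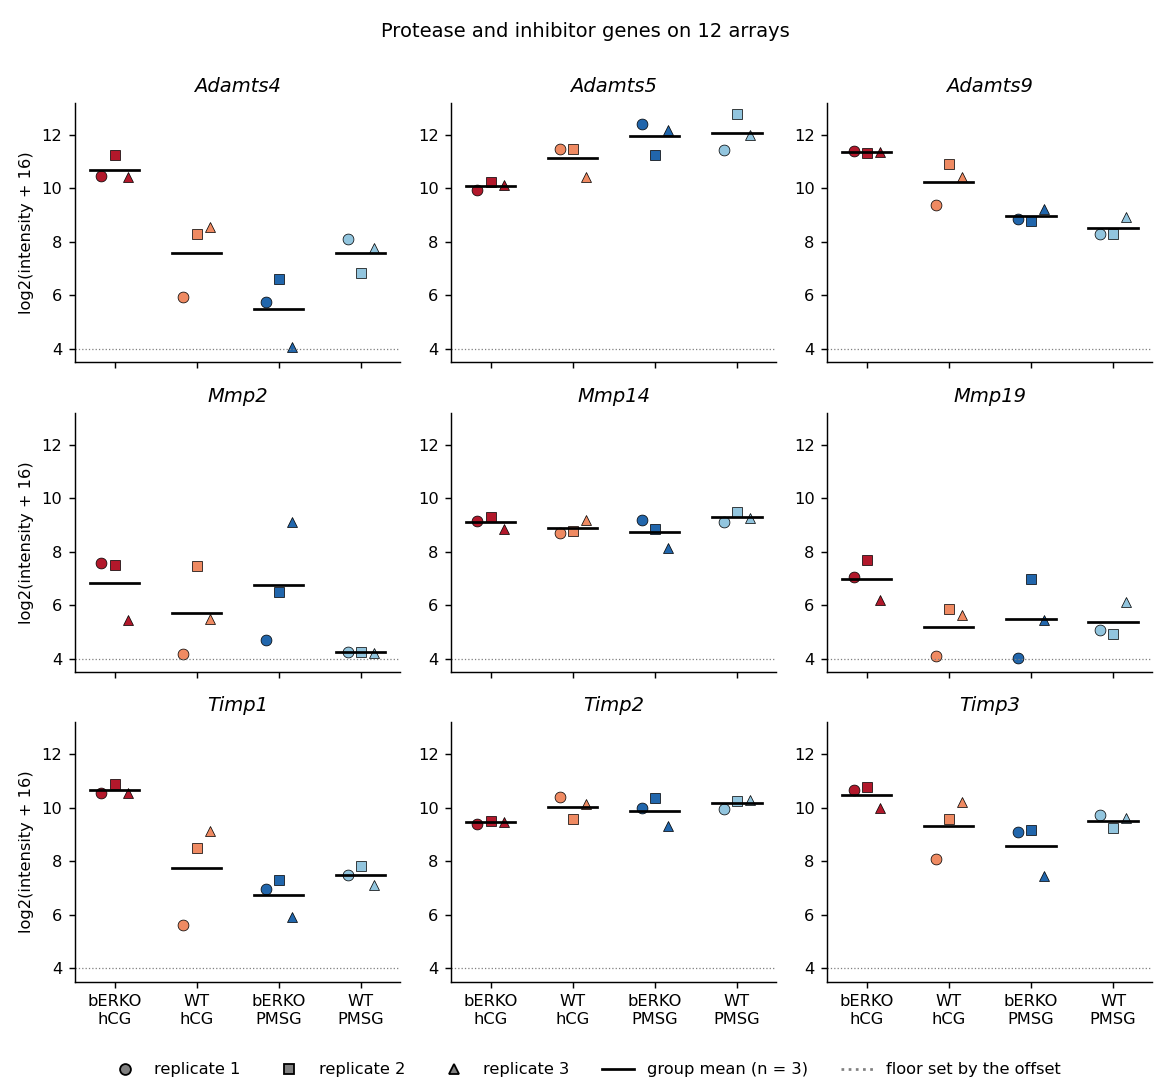
Level of each of the 9 genes on each array, in log2(intensity + 16) on the vertical axis, with 1 point per array, a bar at the group mean and a dotted line at the floor; the groups run bERKO hCG, WT hCG, bERKO PMSG, WT PMSG from left to right. Adamts4 stands at 10.41 to 11.26 on the bERKO hCG arrays and at 4.09 to 8.54 on all the others.

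Adamts4, a protease that cuts versican and aggrecan, showed the widest range among the members. It read 10.45, 11.26 and 10.41 on the bERKO hCG arrays and 5.95, 8.32 and 8.54 on the WT hCG arrays. After PMSG alone it read 5.77, 6.62 and 4.09 in bERKO cells and 8.12, 6.82 and 7.77 in WT cells. The bERKO hCG arrays thus lay above all 9 others, the bERKO PMSG arrays lay below the WT PMSG arrays, and the 2 wild-type groups overlapped. The hCG response was 5.21 ± 0.74 (SE, 37.1-fold) in bERKO cells, with an adjusted p of 0.000875, and 0.03 ± 0.74 in WT cells, with an adjusted p of 0.991. The responses differed by 5.18 ± 1.04 (adjusted p = 0.0393), and Adamts4 was the only member among the 9 with a called difference, a call made for 1.31% of all genes (0.676% higher, 0.638% lower).

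The lowest WT hCG value of Adamts4 came from WT hCG replicate 1, the array with the highest Gapdh ratio and low Pgr. Without it the WT response was 0.86 (adjusted p = 0.567) and the difference of responses was 4.35 (adjusted p = 0.0617). Without bERKO PMSG replicate 3 the difference was 4.48 (adjusted p = 0.0646), and without both arrays it was 3.65 and called (adjusted p = 0.0458), beside a WT response of 0.86 (adjusted p = 0.321). With single arrays left out the call was lost without any of 10 of the 12, with adjusted p up to 0.0988, and was kept without WT hCG replicate 3 or bERKO PMSG replicate 2. The less bright probe set of Adamts4 gave a response of 4.40 in bERKO cells and 0.99 in WT cells, and a difference of 3.41 (adjusted p = 0.0202 over all single-gene probe sets). Both probe sets therefore ran the same way and were called, with a smaller size on the dimmer one.

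Adamts9, a protease of versican and aggrecan that is also retained near the cell surface, was the member that rose in both genotypes. Its levels were 11.41, 11.32 and 11.37 in bERKO hCG cells, 9.38, 10.92 and 10.43 in WT hCG cells, 8.85, 8.79 and 9.22 in bERKO PMSG cells and 8.29, 8.31 and 8.95 in WT PMSG cells. Within each genotype every hCG array exceeded every PMSG array. The response was 2.42 ± 0.37 (5.34-fold, adjusted p = 0.00128) in bERKO cells and 1.73 ± 0.37 (3.31-fold, adjusted p = 0.0377) in WT cells. The difference between the responses, 0.69, did not pass (adjusted p = 0.573). The WT call held without WT hCG replicate 1, at 2.16 (adjusted p = 0.00593), and was lost without either other WT hCG array (1.39 and 1.63, adjusted p = 0.139 and 0.0954), any WT PMSG array (1.61 to 1.94, adjusted p = 0.075 to 0.143) or any of 4 bERKO arrays (adjusted p = 0.0511 to 0.0626). The 3 probe sets of Adamts9 gave responses of 2.42 to 5.85 in bERKO cells, each of them called, so its brightest probe set gave the smallest value. In WT cells they gave 1.73 to 3.69, and in that fit over all single-gene probe sets none of the 3 was called (adjusted p = 0.0529, 0.0652 and 0.162).

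Adamts5, another aggrecanase, moved the opposite way. It read 9.96, 10.23 and 10.11 in bERKO hCG cells and 11.47, 11.48 and 10.43 in WT hCG cells, against 12.40, 11.26 and 12.17 in bERKO PMSG cells and 11.42, 12.78 and 11.997 in WT PMSG cells. The bERKO hCG arrays were the 3 lowest of the 12. Adamts5 fell by 1.84 ± 0.43 in bERKO cells after hCG (adjusted p = 0.0113), and its 4 probe sets gave -2.12 to -1.52, all called. The change in WT cells was -0.94 (adjusted p = 0.287), and the difference of responses, -0.90, did not pass (adjusted p = 0.515).

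**Figure D2:**
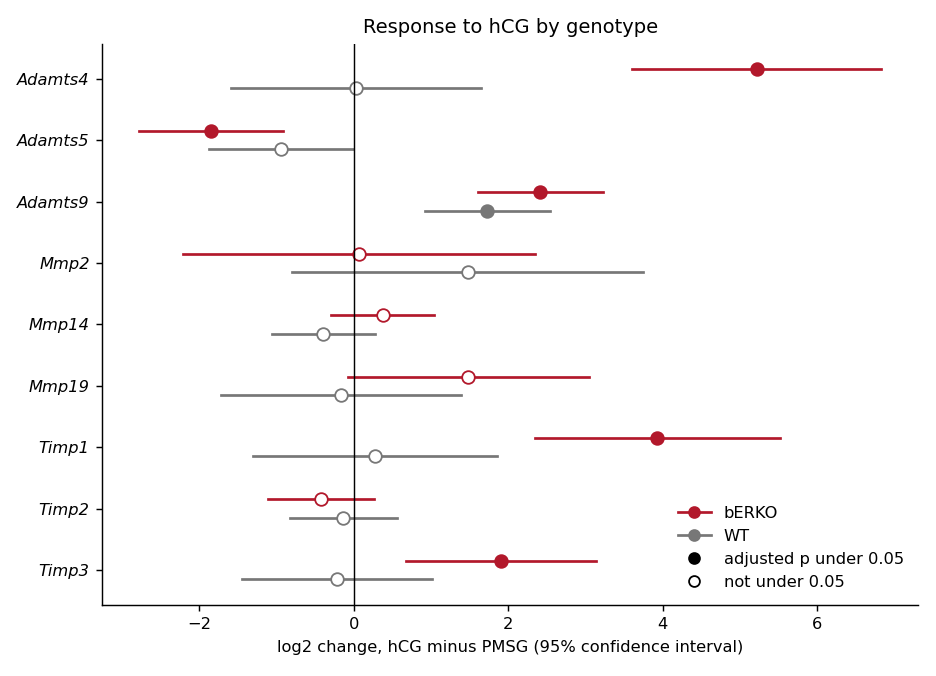
Change with hCG (hCG minus PMSG, log2 units, horizontal axis) of each gene in bERKO cells and in WT cells, as points with 95% confidence intervals, filled where called. In bERKO cells the intervals of Adamts4, Timp1, Adamts9 and Timp3 lie above 0 and that of Adamts5 below 0, and in WT cells Adamts9 is the one called.

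No matrix metalloprotease among the members was called in any comparison. Mmp14, the membrane-anchored enzyme that activates the Mmp2 precursor, read 9.13, 9.30 and 8.85 in bERKO hCG cells, 8.71, 8.77 and 9.20 in WT hCG cells, 9.18, 8.83 and 8.14 in bERKO PMSG cells and 9.12, 9.48 and 9.26 in WT PMSG cells. All groups overlapped. Its response was 0.38 (95% confidence interval -0.29 to 1.04, adjusted p = 0.433) in bERKO cells and -0.39 (-1.06 to 0.27, adjusted p = 0.578) in WT cells, and its 3 probe sets gave 0.26 to 0.61 in bERKO cells and -0.58 to 0.72 in WT cells.

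Mmp2, a gelatinase that cuts basement membrane collagen, was dim and scattered. It read 7.56, 7.49 and 5.43 in bERKO hCG cells, 4.17, 7.46 and 5.50 in WT hCG cells, 4.69, 6.48 and 9.09 in bERKO PMSG cells and 4.24, 4.27 and 4.22 in WT PMSG cells. The WT PMSG arrays were all close to the floor, and within the other groups the arrays differed by over 2 log2 units. The response of 0.07 in bERKO cells had an interval of -2.20 to 2.35, so a change of either sign could not be detected with these arrays. Mmp19, an enzyme of basement membrane components known to be induced during ovulation in mouse follicles, read 7.04, 7.67 and 6.20 in bERKO hCG cells, 4.08, 5.86 and 5.65 in WT hCG cells, 4.04, 6.96 and 5.45 in bERKO PMSG cells and 5.06, 4.92 and 6.10 in WT PMSG cells. Its response of 1.48 in bERKO cells did not pass (interval -0.07 to 3.04, adjusted p = 0.174) except without bERKO PMSG replicate 2 (2.22, adjusted p = 0.0428), and in WT cells it was -0.16 (adjusted p = 0.945). The bERKO hCG arrays of Mmp19 all lay above the WT hCG arrays but overlapped the bERKO PMSG arrays.

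Among the inhibitors, Timp1, a soluble inhibitor of most secreted matrix metalloproteases, responded much as Adamts4 did. It read 10.55, 10.88 and 10.55 in bERKO hCG cells, 5.61, 8.51 and 9.12 in WT hCG cells, 6.98, 7.30 and 5.91 in bERKO PMSG cells and 7.50, 7.82 and 7.10 in WT PMSG cells. The bERKO hCG arrays were again above all others, and WT hCG replicate 1 fell below every WT PMSG array while the other two WT hCG arrays lay above them. Timp1 rose by 3.93 ± 0.72 (15.2-fold, adjusted p = 0.00348) in bERKO cells, and its change in WT cells was 0.27 (adjusted p = 0.903). Without WT hCG replicate 1 the WT change was 1.34 (adjusted p = 0.122), and with both high-ratio arrays out the same 1.34 was called (adjusted p = 0.0438). The difference of responses over all arrays, 3.65 ± 1.02, did not pass (adjusted p = 0.112). It passed without WT hCG replicate 3 (4.34, adjusted p = 0.0452) and with the trended robust variance (adjusted p = 0.0482), and without both high-ratio arrays it was 2.18 (adjusted p = 0.0697). Timp1 is the only member with a single probe set.

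Timp3, the inhibitor that binds to the matrix and also blocks ADAMTS proteases, read 10.68, 10.78 and 10.00 in bERKO hCG cells, 8.10, 9.59 and 10.23 in WT hCG cells, 9.11, 9.17 and 7.45 in bERKO PMSG cells and 9.73, 9.23 and 9.61 in WT PMSG cells. The hCG arrays stood above the PMSG arrays in bERKO cells, and the 2 wild-type groups overlapped. Timp3 rose by 1.91 ± 0.56 in bERKO cells (3.75-fold, adjusted p = 0.0345), a call that was lost without bERKO PMSG replicate 3, the lowest array (1.34, adjusted p = 0.11), and without any one bERKO hCG array (1.76 to 2.15, adjusted p = 0.0515 to 0.104). With both high-ratio arrays out the same 1.34 was called (adjusted p = 0.0191). Of its 4 probe sets 3 were called, at 1.06 to 2.89 over all 4. The WT change was -0.22 (adjusted p = 0.9).

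Timp2, which besides inhibiting the enzymes takes part in the activation of the Mmp2 precursor by Mmp14, varied little on its brightest probe set, between 9.31 and 10.39. It read 9.40, 9.50 and 9.48 in bERKO hCG cells, 10.39, 9.58 and 10.14 in WT hCG cells, 9.99, 10.36 and 9.31 in bERKO PMSG cells and 9.95, 10.27 and 10.29 in WT PMSG cells. Its response was -0.43 (interval -1.11 to 0.26, adjusted p = 0.384) in bERKO cells, and its 6 probe sets ran from -0.74 to 0.49 there. In WT cells the response was -0.13 (adjusted p = 0.889), and the 6 probe sets ran more widely, from -0.88 to 1.65, with none called. The trio of Mmp14, Timp2 and Mmp2 thus held no called member in either genotype.

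**Figure D3:**
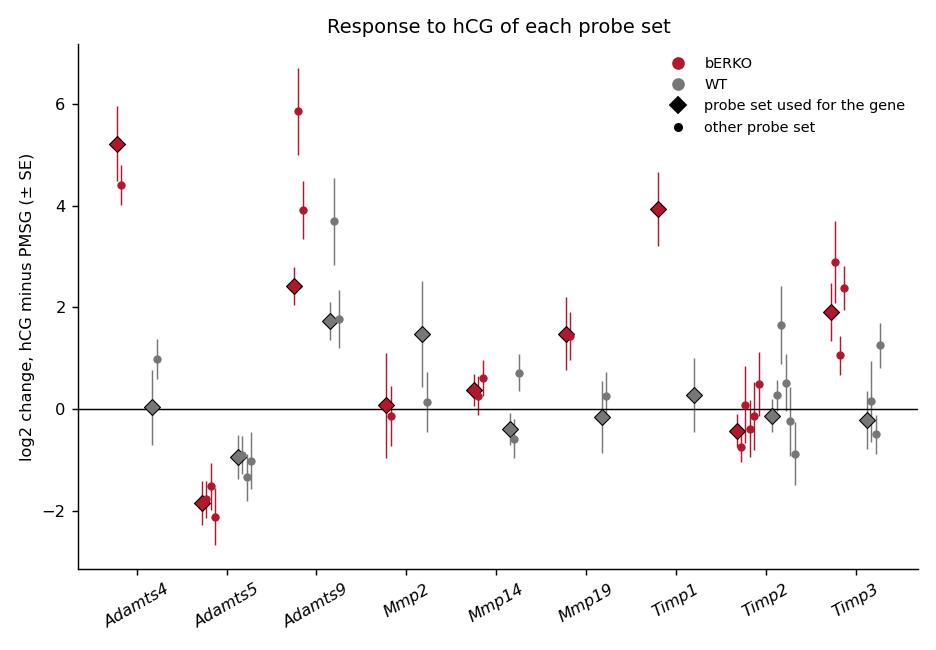
Change with hCG (log2 units ± SE, vertical axis) of every single-gene probe set of the 9 genes in bERKO and in WT cells, with diamonds for the probe set that stands for the gene; the genes have 1 to 6 probe sets each. In bERKO cells the probe sets of Adamts4, Adamts9 and Timp3 all lie above 0 and those of Adamts5 all below 0, while the 6 of Timp2 lie on both sides.

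After hCG, 1 of the 9 members was called between the genotypes, against 3.09% of all genes (1.55% higher, 1.54% lower). Adamts4 was 8.59-fold higher in bERKO than in WT cells (3.10 ± 0.74, adjusted p = 0.047). Timp1 was next, at 2.91 ± 0.72 (adjusted p = 0.0532). Both sizes shrank without WT hCG replicate 1, to 2.28 (adjusted p = 0.143) for Adamts4 and 1.84 (adjusted p = 0.0757) for Timp1. With bERKO PMSG replicate 3 out as well, the same values were called for Adamts4 (adjusted p = 0.047) and Timp1 (adjusted p = 0.029). Timp1 passed in 7 of the 11 settings other than single arrays left out, with adjusted p of 0.0178 to 0.141 over them. The Adamts4 call was lost without any of 9 of the 12 arrays (adjusted p up to 0.143), and Timp1 passed without WT hCG replicate 3 (3.60, adjusted p = 0.0256). The others had adjusted p-values above the threshold: Mmp19 differed by 1.77 (0.216), Timp3 by 1.18 (0.31), Adamts9 by 1.13 (0.128), Mmp2 by 1.11 (0.66), Mmp14 by 0.20 (0.81), Adamts5 by -1.03 (0.233) and Timp2 by -0.58 (0.386). In the limma fit over all single-gene probe sets, a less bright probe set was called for Adamts9 (2.50, adjusted p = 0.0457) and Timp3 (1.70, adjusted p = 0.042). The dimmer probe set of Adamts4 was called there (1.82, adjusted p = 0.0401), and its brightest was not (3.10, adjusted p = 0.0526). All probe sets of Adamts4, Adamts9 and Timp3 gave positive differences. In 6 of the 9 the genotypes did not overlap, against 24.5% of all genes, and 5 had an unadjusted p under 0.05, against 17.5%. The median difference of the members was 1.13, beside -0.06 for all genes.

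After PMSG alone no member was called in the limma fit, and 0.011% of all genes were. By unadjusted p, 2 of 9 were under 0.05, against 9.53% of all genes. They were Adamts4, at -2.08 in bERKO relative to WT cells (adjusted p = 0.402), and Mmp2, at 2.51 (adjusted p = 0.475). In these 2 and in Timp3 (-0.95, adjusted p = 0.649) the genotypes did not overlap, 3 of 9 against 14.7% of genes. Without bERKO PMSG replicate 3 the values were -1.37 for Adamts4, 1.34 for Mmp2 and -0.38 for Timp3. Oocyte markers, 10 genes, averaged 8.95 to 10.23 in bERKO PMSG cells and 5.92 to 8.60 in WT PMSG cells, and their part in these values was not tested.

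**Figure D4:**
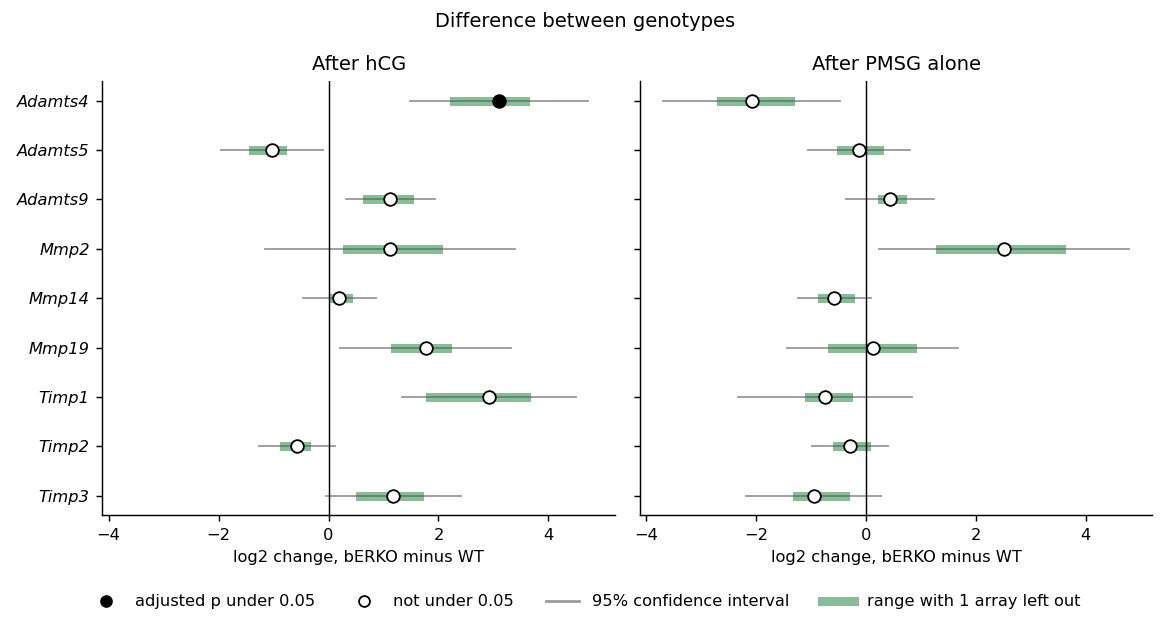
Difference between genotypes (bERKO minus WT, log2 units, horizontal axis) of each gene after hCG and after PMSG alone, with thin lines for 95% confidence intervals and thick bars for the range with 1 array left out. After hCG the value of Adamts4 is 3.10 and that of Timp1 2.91; after PMSG alone Adamts4 is at -2.08, and no gene is called.

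The order of the groups by mean level shows which genes set the bERKO hCG cells apart. Adamts4 averaged 10.71 ± 0.48 (SD, n = 3) in bERKO hCG, 7.60 ± 1.43 in WT hCG, 5.49 ± 1.29 in bERKO PMSG and 7.57 ± 0.67 in WT PMSG cells, and the middle places, WT hCG and WT PMSG, differed by less than their spread. Timp1 averaged 10.66 ± 0.19 in bERKO hCG, 7.75 ± 1.88 in WT hCG, 6.73 ± 0.73 in bERKO PMSG and 7.47 ± 0.36 in WT PMSG cells. The ranges of its 3 lower groups overlapped. Timp3 (10.48 ± 0.42 in bERKO hCG, 9.31 ± 1.09 in WT hCG, 8.58 ± 0.98 in bERKO PMSG and 9.52 ± 0.26 in WT PMSG cells) had the same order of means as Timp1 except that WT PMSG cells stood above WT hCG cells. For Adamts9 the means were 11.37 ± 0.04 in bERKO hCG, 10.24 ± 0.79 in WT hCG, 8.95 ± 0.24 in bERKO PMSG and 8.51 ± 0.38 in WT PMSG cells, with both hCG groups above both PMSG groups. Adamts5 ran the reverse way, at 10.10 ± 0.13 in bERKO hCG, 11.13 ± 0.60 in WT hCG, 11.94 ± 0.61 in bERKO PMSG and 12.07 ± 0.68 in WT PMSG cells, with the 2 PMSG groups within their spread.

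Markers of other cell types also differed between the groups, but the stromal and leukocyte ranges of bERKO hCG cells overlapped those of bERKO PMSG cells. The 10 endothelial markers averaged 6.84 to 7.81 on the bERKO hCG arrays, against 5.61 to 5.85 in WT hCG, 5.43 to 5.88 in bERKO PMSG and 5.70 to 6.21 in WT PMSG cells. Of these 10, 4 were called higher in bERKO than in WT cells after hCG, beside 1.55% of all genes. With hCG in bERKO cells 5 of the 10 rose. In that response 7.05% of all genes were called higher and 11.9% lower, the shares for the bERKO counts that follow. The 12 stromal and smooth muscle markers averaged 7.52 to 8.80 in bERKO hCG and 6.33 to 7.11 in WT hCG cells. In bERKO PMSG cells they averaged 6.13 to 7.71 and in WT PMSG cells 5.83 to 8.02, with 2 of 12 called, both higher, in the bERKO response. The 10 leukocyte markers averaged 5.67 to 6.66 in bERKO hCG and 5.10 to 5.41 in WT hCG cells. They averaged 5.10 to 6.03 in bERKO PMSG and 5.06 to 5.53 in WT PMSG cells, with 2 of 10 higher in the bERKO response. Oocyte markers averaged 6.80 to 7.89 in bERKO hCG cells, against 8.95 to 10.23 in bERKO PMSG cells, with 5 of 10 lower in the bERKO response and a median change of -2.21. The 6 theca and interstitial markers, some of which luteinizing granulosa cells also express, averaged 10.84 to 10.98 in bERKO hCG and 9.76 to 10.78 in WT hCG cells, while none was called between these groups and the median difference was -0.10. In the bERKO response 2 of the 6 were higher and 1 lower, with a median of -0.01, and Gli1 was near the floor. The granulosa list went down, to 11.36 to 11.68 in bERKO hCG cells, against 12.45 to 12.74 in WT hCG cells, with 6 of 11 markers lower in the bERKO response. Endothelial, stromal and leukocyte cells express several of the 9 genes, Mmp2, Mmp14, Timp1 and Timp3 among them, and the part of such cells in the values above was not tested. At most 2 of the 10 endothelial markers had an intensity under 16 on a bERKO hCG array, and 3 to 5 did on the bERKO PMSG arrays.

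Across the 12 arrays, the level of Adamts4 correlated with the endothelial mean at r = 0.86, and at 0.48 after group means were taken out. For Timp1 these were 0.83 and 0.18, for Timp3 0.75 and 0.52, and for Adamts9 0.70 and 0.20. With the theca and interstitial mean Adamts4 correlated at 0.91 over all arrays and 0.87 within groups. For Timp1 these were 0.84 and 0.73, for Timp3 0.86 and 0.86, and for Adamts9 0.81 and 0.53. The theca and interstitial markers moved both ways in the bERKO response. Mmp2 correlated with the leukocyte mean at 0.70 (0.75 within groups) and with the stromal mean at 0.57 (0.52). For Mmp19 these were 0.82 (0.67) and 0.63 (0.30). The arrays share their groups and their RNA quality, so these coefficients describe 12 points and carry no test.

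Members also ran with each other. Adamts4 and Timp1 correlated at r = 0.94 over the 12 arrays and 0.82 within groups, Adamts4 and Timp3 at 0.93 both over all arrays and within groups, and Timp1 and Timp3 at 0.89 and 0.85. Adamts4 and Adamts5 correlated at -0.81 (-0.59 within groups), and Mmp2 and Timp2 at -0.76 (-0.73). Adamts4 and the 2 inhibitors thus varied together from array to array, also among replicates of a group, and the part of RNA quality in this was not tested. Among 9300 genes with a mean of at least 7, the genes most like Adamts4 were Entpd7 (r = 0.97), Pappa (0.97), which encodes a metalloprotease that cuts IGF-binding proteins, and Megf10 (0.96). Those most like Timp1 were Ephx2, Lratd1 and Ncoa7, each at 0.98. Rragd (0.99), Rnd3 (0.98) and Rnf128 (0.98) followed Adamts9 most closely, Trp53inp2 (0.97), Fads3 (0.96) and Mrfap1 (0.96) followed Timp3, and Mboat2 (0.95), Btbd2 (0.94) and Rai2 (0.94) followed Adamts5.

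In the bERKO response 1 of 14 other matrix metalloproteases and 4 of 12 other ADAMTS genes were called, beside 18.9% of all genes. Of 14 other matrix metalloproteases measured of 19 listed, only Mmp24 was called in any comparison, at -1.82 in bERKO cells after hCG (adjusted p = 0.00161), although its 3 probe sets ran from -1.82 to 0.07. The closest to a call between genotypes after hCG were Mmp11, at -1.67 (adjusted p = 0.0914), and Mmp10, at -0.65 (adjusted p = 0.345). Of 12 other ADAMTS genes measured of 16 listed, Adamts3 (1.88) and Adamts1 (1.33, adjusted p = 0.0131) rose and Adamts10 (-2.54) and Adamts19 (-2.54) fell with hCG in bERKO cells. None of the 12 was called in the WT response. Adamts3, a procollagen N-proteinase, was also higher in bERKO than in WT cells after hCG (2.04, adjusted p = 0.0291).

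Adamts1, the progesterone receptor-dependent protease of versican that is best known for its part in ovulation, read 13.47, 13.26 and 13.45 in bERKO hCG cells and 11.59, 12.81 and 12.65 in WT hCG cells, against 11.91 to 12.23 in bERKO PMSG cells and 11.998 to 12.26 in WT PMSG cells. Its WT change of 0.22 did not pass (adjusted p = 0.799), and WT hCG replicate 1 was the only WT hCG array below the range of WT PMSG cells. The genotype difference after hCG was 1.04 (adjusted p = 0.101).

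**Figure D5:**
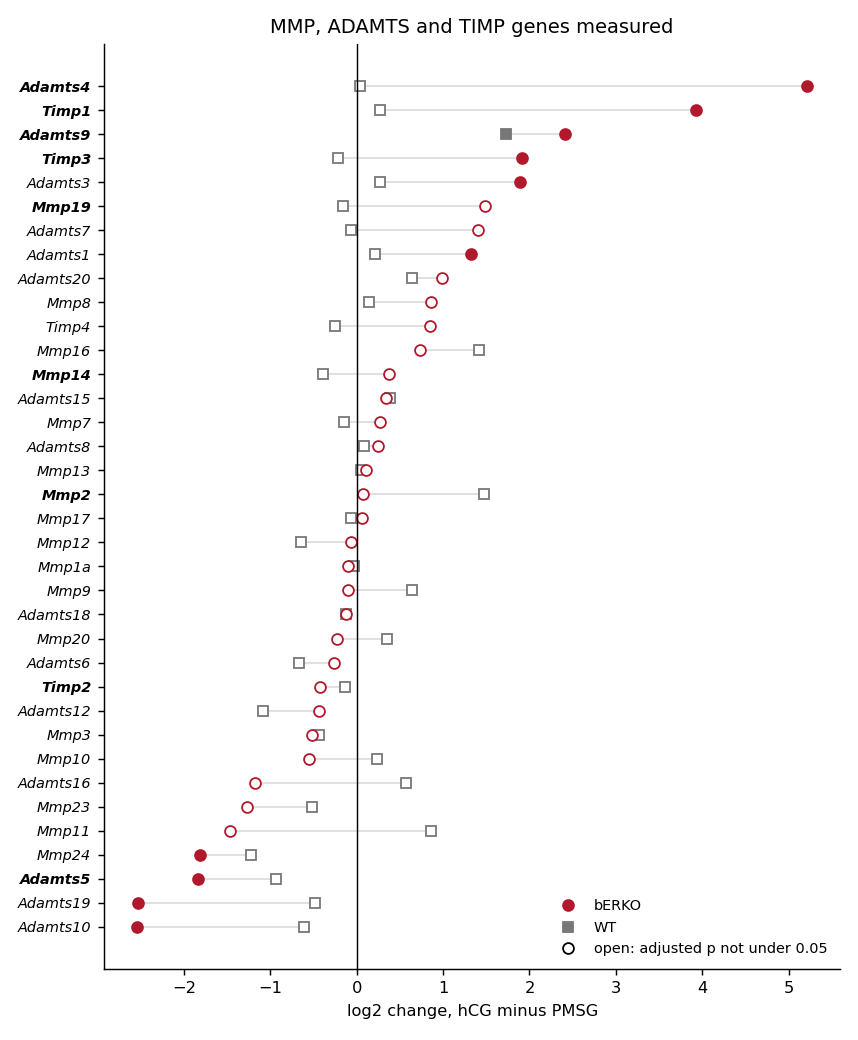
Change with hCG (log2 units, horizontal axis) of every measured matrix metalloprotease, ADAMTS gene and TIMP in bERKO and in WT cells, with the 9 genes of the report in bold and called changes marked. The values of Adamts4 (5.21), Timp1 (3.93) and Adamts9 (2.42) in bERKO cells lie at the upper end, and those of Adamts10 and Adamts19 (-2.54 each) at the lower end.

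Inhibitors, receptors and activators outside the TIMP family followed other patterns. Reck, a membrane-anchored inhibitor of matrix metalloproteases, was lower with hCG in WT cells (-1.80, adjusted p = 0.0139) and was not called in bERKO cells (0.42, adjusted p = 0.35). Its levels were 9.30, 9.11 and 9.11 in bERKO hCG cells, 7.64, 7.73 and 8.56 in WT hCG cells, 9.08, 8.54 and 8.64 in bERKO PMSG cells and 9.70, 9.73 and 9.89 in WT PMSG cells. The responses differed by 2.22 (adjusted p = 0.0273), and Reck was higher in bERKO than in WT cells after hCG (1.197, adjusted p = 0.0486), calls that held in 3 and 2 of the 12 refits that left out an array; the WT change held in 8. Lrp1, the receptor that clears protease and inhibitor complexes, fell by 1.19 in bERKO cells after hCG (limma, adjusted p = 0.0373). This call held in 4 of the 12 refits that left out an array. Of 6 measured genes of the activation list, Pcsk5, a proprotein convertase, was called higher with hCG in both genotypes. It rose by 2.70 in bERKO cells (limma, adjusted p = 0.00128) and by 1.80 in WT cells (adjusted p = 0.0482). The bERKO call held in all 12 refits that left out an array, and the WT call in 2. Cldn11, a tight junction protein, fell in bERKO cells (-2.17, adjusted p = 0.0495), a call that held in 3 of the 12 refits that left out an array. Without bERKO PMSG replicate 3 the change was -1.44. After hCG, Cldn11 was lower in bERKO than in WT cells (-3.43, adjusted p = 0.0266), which held in 7 of those refits.

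Of 22 matrix and substrate genes, all measured, 5 rose and 1 fell with hCG in bERKO cells, beside 7.05% of all genes higher and 11.9% lower. The largest were Tnfaip6 (7.10) and Has2 (4.99), which build the hyaluronan matrix around the oocyte, and Fn1 (3.18), fibronectin. In WT cells Nid2, a basement membrane protein, was the only one called (2.16, limma adjusted p = 0.0328), beside 0.731% of all genes higher and 1.35% lower. The Nid2 call held in 5 of the 12 refits that left out an array. After hCG, Hapln1, which links hyaluronan to versican, was higher in bERKO than in WT cells (2.06, adjusted p = 0.0336), and Lama1, a laminin chain, was lower (-1.98, adjusted p = 0.00785). The 4 probe sets of Hapln1 ran from 0.02 to 2.06, and its call held in 6 of the 12 refits that left out an array.

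Of 14 transcription factors listed as possible regulators of ovulatory protease genes, 13 were measured. In bERKO cells after hCG 8 of the 13 rose and none fell, beside 7.05% of all genes higher and 11.9% lower. Pgr, the progesterone receptor, rose by 8.50, Runx1 by 4.26 and the AP-1 protein Fosl1 by 3.70. In WT cells Cebpb was the one called (1.36, limma adjusted p = 0.0327), beside 0.731% of all genes higher and 1.35% lower. Its 2 probe sets ran from -0.64 to 1.36, and the call held in 5 of the 12 refits that left out an array. Pgr, at 4.03 in WT cells, did not pass over all arrays (adjusted p = 0.222). Its WT change was 6.70 without WT hCG replicate 1, and 1 of the 12 limma refits that left out an array called it (adjusted p = 2.46e-05). Of the 13, 2 were called higher in bERKO than in WT cells after hCG, beside 1.55% of all genes. They were the AP-1 proteins Fosl1 (2.69, limma adjusted p = 0.0266) and Fosb (2.17, adjusted p = 0.0415). These calls held in 7 and 2 of the 12 refits that left out an array. Without WT hCG replicate 1 the values were 2.17 for Fosl1 and 1.69 for Fosb. After PMSG alone no gene of the 6 lists was called between genotypes; the smallest p among the matrix genes was that of Nid2, at 2.26 (adjusted p = 0.136), and Reck was at -1.02 (adjusted p = 0.301).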

How the data were processed

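Expression was measured on 12 one-colour Affymetrix arrays, 4 groups of 3, each sample labelled by the authors as a biological replicate; the animals behind them are not given in the sources used here, and p-values measure the spread between these samples. The deposited values are linear intensities, scaled by the authors to a 2% trimmed mean of about 500 on every array (from the values); the software that made them was not stated. Array medians differed by 0.98 on the log2 scale, so the 45037 non-control probe sets (64 of 45101 were controls) were quantile normalized on the linear scale, and 16 was added before log2. Of these, 34945 carried 1 gene symbol, 932 several and 9160 none in the platform annotation; the single-gene probe set with the highest mean stood for each of 18193 genes, of which 9010 had several. No deposited array column was left out.

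A group means model was fitted over all arrays with limma 3.58.1 in R 4.3.3 (lmFit, eBayes, two-sided, Benjamini-Hochberg over all genes within each of 5 contrasts, threshold 0.05), and tested on simulated data. The members, gene lists, marker lists and tests were chosen with earlier results of these data known. All members were named in every comparison, with, per list, the called genes with the 3 largest changes or, without any, the genes with the smallest p; Adamts1 was named throughout. Sequences are from RefSeq (GRCm38.p6), which had a promoter for 5 of the 9 members. Figures were drawn with matplotlib 3.10.9. Alternatives were the scaling, offset, filter, probe set rule, variance model, array weights, replicate block, samples fitted and each array left out.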

Additional observations from a re-analysis of the deposited data

Results flagged for a closer look

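Among the named genes, 6 were called for a difference of hCG responses between the genotypes (limma interaction contrast), a call made for 1.31% of all genes. Genes of the lists were named because of their calls, so the count of 6 is not a result about the named genes as a set. Adamts4 responded by 5.21 in bERKO and 0.03 in WT cells, a difference of 5.18 (adjusted p = 0.0393). Reck was at 0.42 in bERKO and -1.80 in WT cells, a difference of 2.22 (adjusted p = 0.0273). For Cldn11 the responses were -2.17 in bERKO and 2.59 in WT cells, a difference of -4.77 (adjusted p = 0.0422), and for Nid2 they were -0.78 in bERKO and 2.16 in WT cells, a difference of -2.94 (adjusted p = 0.0453). Fn1 responded by 3.18 in bERKO and 0.44 in WT cells, a difference of 2.74 (adjusted p = 0.0339). Lama1 responded by -1.51 in bERKO and 0.75 in WT cells, a difference of -2.26 (adjusted p = 0.0285). All 6 kept their sign in the 12 refits that left out 1 array each. The adjusted p was under 0.05 in 2 of those refits for Adamts4, 3 for Reck, 2 for Cldn11, 1 for Nid2, 5 for Fn1 and 4 for Lama1, so each call depends on most single arrays. The values ranged from 4.35 to 5.75 for Adamts4, 2.05 to 2.51 for Reck, -5.38 to -4.03 for Cldn11, -3.49 to -2.61 for Nid2, 2.42 to 2.94 for Fn1 and -2.44 to -2.05 for Lama1.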

How the results depend on the processing

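With 3 arrays a group, leaving out each array or changing the processing moved calls close to the threshold. The counts of members called were 5 in the bERKO response (4 to 6 with 1 array, or both arrays with a high Gapdh ratio, left out; likewise below), 1 in the WT response (0 to 2), 1 between genotypes after hCG (0 to 2), 1 for the difference of responses (0 to 2) and 0 after PMSG under every setting. Between genotypes after hCG the count was 0 with values as deposited, an offset of 1, the replicate block or only the compared groups, and 2 with median centring, an offset of 64, the filter on dim genes, the mean of probe sets, the trended robust variance or array weights. In the WT response it was 0 with median centring, an offset of 1, the replicate block or only the compared groups. For the difference it was 0 with an offset of 1 or the replicate block and 2 with the trended robust variance. With the replicate block, Adamts4 after hCG had an adjusted p of 0.0693, its difference of responses 0.0671, Adamts9 in WT cells 0.0571 and Timp3 in bERKO cells 0.0557; replicate numbers did not pair the arrays (correlations of same-number deviations -0.04 to 0.12, 1 of 12 pairs over 0.1). Among the 8 member results called, 32 of 96 refits without an array and 13 of 87 under other settings lost the call, and none changed sign; among 30 called results of list genes, 133 of 360 and 69 of 318 lost theirs.

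Values that changed sign were all uncalled. After PMSG these were Adamts5 (0.21) and Bsg (0.0116) with median centring, Mmp19 (-0.59) with an offset of 1, Adamts1 (0.0285 as deposited, 0.28 with median centring) and Pgr (0.26 with the mean of probe sets). In the WT response they were Adamts4 (-0.074 with median centring, -0.0142 with an offset of 1), Mmp19 (0.0675 as deposited, 0.0459 with the mean of probe sets, 0.23 with array weights), Timp2 (0.20), Timp3 (0.17) and Adamts10 (0.24) with the mean of probe sets, Timp3 (0.10) with array weights and Adamts1 (-0.15) with median centring. Mmp2 in the bERKO response was -0.0883 with median centring, -0.0966 with an offset of 64 and -0.0328 with the mean of probe sets. With arrays left out in this way, the ranges were -0.44 to 0.23 for Adamts5, -0.61 to 0.85 for Mmp19, -0.52 to 0.0022 for Timp2, -0.95 to 0.039 for Mmp12 and -0.15 to 0.0139 for Adamts1 after PMSG, -0.44 to 0.86 for Adamts4, -0.50 to 0.39 for Mmp19, -0.41 to 1.34 for Timp1, -0.31 to 0.10 for Timp2, -0.68 to 0.38 for Timp3 and -0.0143 to 0.60 for Adamts1 in the WT response, and -0.96 to 1.24 for Mmp2 in the bERKO response. The cause was not tested. Scaling moved the median of all genes in the bERKO response to -0.41 with median centring, against -0.19 in the fit reported and -0.05 as deposited; 4 members higher and 1 lower were called under all 3.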
